A study of Mus musculus with 13 samples.

Results

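The SLC7 family of amino acid transporters and their heavy chain Slc3a2 were examined in hearts of C10 G58R mice in which the protease OMA1 was knocked down. The set was the 9 SLC7 genes Slc7a1, Slc7a2, Slc7a3, Slc7a5, Slc7a6, Slc7a7, Slc7a8, Slc7a10 and Slc7a11 with Slc3a2, taken by gene symbol from the annotation of the array. These are 10 of the 19505 genes that the annotation names, and each was measured by 1 transcript cluster, the group of probes that reads 1 gene. OMA1 is a protease of the inner mitochondrial membrane, and C10 (CHCHD10) is a mitochondrial protein whose G58R mutation causes myopathy and cardiomyopathy.

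Antisense oligonucleotides (ASOs) were injected under the skin once a week at 50 mg/kg, and RNA of the heart was read on Clariom S Mouse arrays, 1 array per mouse. Every mouse was given as 33 weeks old and of the genotype OMA1+/- C10 G58R, so controls and treated mice alike carried the C10 mutation and a single working copy of Oma1. CTRL ASO mice (n = 5) received an ASO without a target, and the others received 1 of 2 ASOs against Oma1, named OMA1 ASO1 (n = 5) and OMA1 ASO2 (n = 3). The study reports that some mice given OMA1 ASO died during the treatment. By the study's counts, fewer mice given OMA1 ASO survived than there are OMA1 ASO arrays here. Either an array came from a mouse that died early or the counts differ. The sample titles do not say which, nor do they mark such an array. The tissue was whole perfused heart, knocked down in adults in all cells that the ASO reaches, and no heart without the C10 mutation was among these arrays. In bulk tissue, fewer cells of a type and less RNA per cell cannot be told apart.

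Most SLC7 transporters are built from a light chain, the SLC7 protein that carries the amino acid, and a heavy chain that brings it to the plasma membrane. Slc3a2 (4F2hc, CD98) is the heavy chain of Slc7a5, Slc7a6, Slc7a7, Slc7a8, Slc7a10 and Slc7a11, which mostly exchange one amino acid for another, whereas the cationic transporters Slc7a1, Slc7a2 and Slc7a3 carry arginine and lysine without a heavy chain. Several of these genes are known targets of ATF4, the transcription factor of the integrated stress response (ISR), which raises amino acid import when translation is curbed.

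Signals are on a log2 scale, so a difference of 1 is a doubling, and levels are compared between mice and never between genes, whose probes differ. The background of an array is the highest of its 23 background probe sets and was 5.77 to 6.07. On OMA1 ASO1 replicate 5 the signals of all clusters correlated less with the rest of its group (0.974 on average, against 0.984 to 0.990 for the others), so values are given with and without this array where it bears on them. The 7 cardiomyocyte markers overlapped between the groups (log2 of their summed signal 21.86 to 22.04 with CTRL ASO and 21.89 to 22.07 with OMA1 ASO). The target Oma1 was at 9.13 to 9.83 with CTRL ASO and below background on all 8 OMA1 ASO arrays. Chchd10, the mutated gene, was at 15.47 to 16.48 with CTRL ASO and at 13.91 to 15.96 with OMA1 ASO. Every OMA1 ASO1 array, at most 15.22, lay below every CTRL ASO array, but OMA1 ASO2 replicate 3, at 15.96, lay within their range. Its pooled log2 difference was -1.16 (limma), with an adjusted p of 0.0258 that missed the threshold used below. The part of Chchd10 in the transporter levels was not tested.

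With both ASOs together, 5 of the 10 genes fell and none rose (limma, Benjamini-Hochberg adjusted p under 0.01). They were the heavy chain Slc3a2, the leucine transporter Slc7a5, the cystine transporter Slc7a11 and the arginine transporters Slc7a1 and Slc7a3. Over all 22206 clusters tested, 0.806% were lower and 0.23% higher by the same rule. The median difference was -1.22 over the 10 genes, or -1.01 with Slc7a3, Slc7a5 and Slc7a11 each at a bound where arrays lay below background, and 0.01 over all clusters. The 5 genes that fell were the 5 that lay above background on every CTRL ASO array. Of the others, Slc7a6 was above background on 4 of the 5 CTRL ASO arrays, Slc7a8 on 1 array of the study, and Slc7a2, Slc7a7 and Slc7a10 on none, so that for these last 4 the arrays give no measure of a fall.

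**Figure D1:**
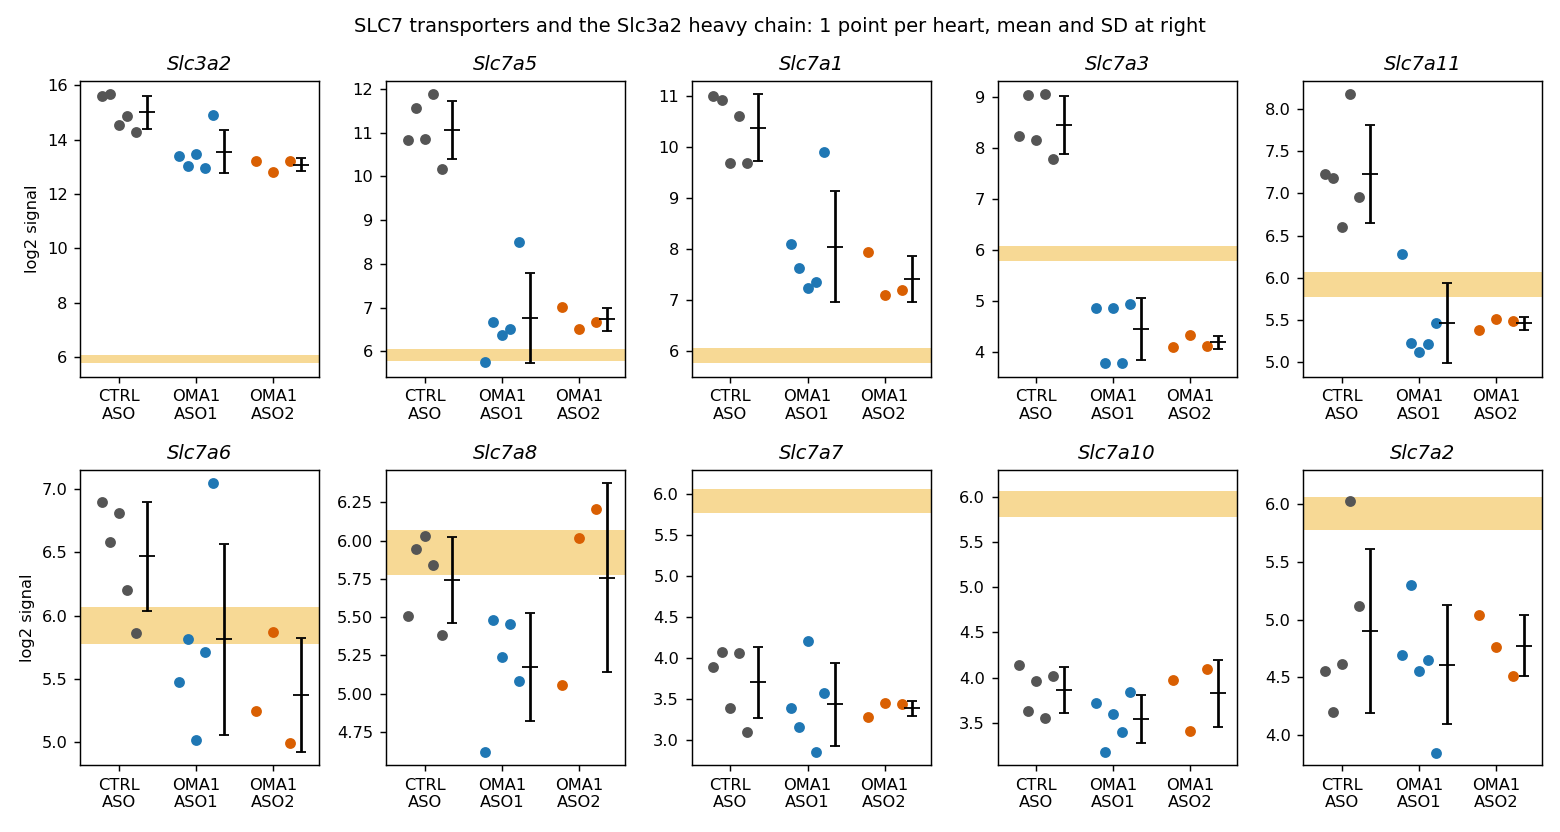
Log2 signal of each gene (vertical axis, with its own range in each panel) on every array, 1 point per heart, by ASO, with the mean and SD of each group at its right. The yellow band is the range of the background over the arrays; Slc7a5, Slc7a3 and Slc7a11 separate OMA1 ASO from CTRL ASO without overlap, and every point of Slc7a2, Slc7a7 and Slc7a10 is below the background of its own array.

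Slc3a2, the heavy chain, was at 15.63, 15.67, 14.55, 14.89 and 14.30 on CTRL ASO replicates 1 to 5. It was at 13.41, 13.04, 13.48, 12.98 and 14.92 with OMA1 ASO1 and at 13.24, 12.82 and 13.21 with OMA1 ASO2. Of the 8 OMA1 ASO arrays, 7 lay below the lowest CTRL ASO array, and OMA1 ASO1 replicate 5 lay within the CTRL ASO range. The mean went from 15.01 ± 0.62 (SD, n = 5) to 13.39 ± 0.66 (SD, n = 8), a log2 difference of -1.62 (SE 0.31, 95% interval -2.28 to -0.96), or 3.07-fold lower, with an adjusted p of 0.00794. This call is the least secure of the 5: without OMA1 ASO1 replicate 5 the difference was -1.84 (adjusted p = 8.71e-05), but leaving out any 1 of the 11 arrays other than that one and CTRL ASO replicate 5 took the adjusted p past 0.01, to at most 0.0395, and a model with the replicate number as a block gave 0.0259.

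Slc7a5 (LAT1), the light chain that imports leucine and other large neutral amino acids in exchange for glutamine, was at 10.83, 11.55, 10.85, 11.87 and 10.17 with CTRL ASO. With OMA1 ASO1 it was at 5.75, 6.67, 6.37, 6.51 and 8.49, and with OMA1 ASO2 at 7.02, 6.51 and 6.66. Every OMA1 ASO array was below every CTRL ASO array, and even OMA1 ASO1 replicate 5, the highest of the 8, was well under the CTRL ASO range. The mean fell from 11.06 ± 0.67 (SD, n = 5) to 6.75 ± 0.79 (SD, n = 8), a log2 difference of -4.31 (SE 0.36, 95% interval -5.06 to -3.55), or 19.8-fold, with an adjusted p of 8.34e-07. Its signal with OMA1 ASO was close to the floor of the array: OMA1 ASO1 replicate 1, at 5.75, was below background and the others were above it. With that array set to its background the fall was at least 19.3-fold.

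Slc7a8 (LAT2), the other light chain for large neutral amino acids, was near background in all groups. It was at 5.39 to 6.03 with CTRL ASO, below background on all 5 arrays, at 4.62 to 5.48 with OMA1 ASO1 and at 5.05, 6.02 and 6.20 with OMA1 ASO2. The groups overlapped, and the pooled difference of -0.35 did not pass the test (adjusted p = 0.609).

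Slc7a6 (y+LAT2), a light chain that exchanges cationic for neutral amino acids, was at 6.89, 6.58, 6.81, 6.20 and 5.87 with CTRL ASO. It was at 5.47, 5.82, 5.02, 5.71 and 7.04 with OMA1 ASO1 and at 5.25, 5.87 and 5.00 with OMA1 ASO2. OMA1 ASO1 replicate 5 was the highest array of the whole study and the only OMA1 ASO array above background. The difference of -0.82 (95% interval -1.43 to -0.21) did not pass the test over all arrays (adjusted p = 0.204), and without OMA1 ASO1 replicate 5 it was -1.02, with an adjusted p of 0.0112 that also missed the threshold. Both differences are fitted values and not measured falls, since all other OMA1 ASO arrays lay below background. Slc7a7 (y+LAT1), its close relative in kidney and intestine, was at 3.11 to 4.08 with CTRL ASO and 2.85 to 4.21 with OMA1 ASO. Slc7a10 (Asc-1), a carrier of small neutral amino acids, was at 3.56 to 4.14 with CTRL ASO and 3.17 to 4.10 with OMA1 ASO. Both lay below background on all 13 arrays, with overlapping groups (adjusted p = 0.664 for Slc7a7 and 0.701 for Slc7a10), and values below background carry no order.

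Slc7a11 (xCT), the light chain that imports cystine in exchange for glutamate and so feeds glutathione synthesis, was at 7.23, 7.19, 6.60, 8.17 and 6.96 with CTRL ASO. It was at 6.28, 5.22, 5.12, 5.22 and 5.46 with OMA1 ASO1 and at 5.38, 5.52 and 5.49 with OMA1 ASO2. The groups did not overlap, and of the 8 OMA1 ASO arrays only OMA1 ASO1 replicate 1, at 6.28, was above background. The measured means were 7.23 ± 0.58 (SD, n = 5) and 5.46 ± 0.36 (SD, n = 8). With the 7 arrays below background set to their background, the fall of Slc7a11 came to at least 2.29-fold. The adjusted p of 0.000242 is that of the limma fit to the measured values. OMA1 ASO1 replicate 5 was below background here.

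The stretch before the start of Slc7a11 is shown because, of the 3 genes that fell and have a promoter entry, it alone held the letters TGATGNAA, the core of the composite site to which ATF4 binds with a C/EBP partner (the amino acid response element). Promoters of 300 bases, 250 before to 50 after a start, were taken from RefSeq (GRCm38.p6) and searched on both strands. Of the 10 genes, 7 had an entry (not Slc7a2, Slc7a3 and Slc7a5), 2 of these had a match, and Slc3a2, Slc7a1, Slc7a6, Slc7a8 and Slc7a10 had none. The promoter of Slc7a11 (chr3:50443564-50443863, minus strand) held TGATGCAA at -66 to -59 from the start and its reverse complement at -47 to -40, both in capitals:
Slc7a11: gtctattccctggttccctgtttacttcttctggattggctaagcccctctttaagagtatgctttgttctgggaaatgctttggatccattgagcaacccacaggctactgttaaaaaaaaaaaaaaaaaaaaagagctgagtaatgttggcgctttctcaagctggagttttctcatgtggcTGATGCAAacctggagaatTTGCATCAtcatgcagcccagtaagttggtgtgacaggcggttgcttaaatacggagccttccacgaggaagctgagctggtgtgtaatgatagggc
The other gene with a match was Slc7a7, which was below background on every array, and 40 bases around its TGATGCAA (chr14:54417922-54417961, minus strand) are set beside it, with the match in capitals. It lies at -1 to 7 from the start, and the same promoter held TGATGAAA at -141 to -134:
Slc7a7: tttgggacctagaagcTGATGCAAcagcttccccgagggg
Among all 32851 promoters of this length, 3.97% held TGATGNAA and 0.07% held it at least 2 times, as both Slc7a11 and Slc7a7 did, while 0.895% held TGATGCAA and 0.00609% held it at least 2 times. A match of letters is a description and not a site of binding, and a window without one says nothing of the factor.

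Slc7a1 (CAT1), the main importer of arginine and lysine in most tissues, was at 10.99, 10.92, 9.69, 10.61 and 9.68 with CTRL ASO. With OMA1 ASO1 it was at 8.11, 7.62, 7.24, 7.36 and 9.91, and with OMA1 ASO2 at 7.94, 7.11 and 7.19. All OMA1 ASO arrays but OMA1 ASO1 replicate 5 lay at 7.11 to 8.11, under the lowest CTRL ASO array, and that array lay within the CTRL ASO range. The mean fell from 10.38 ± 0.65 (SD, n = 5) to 7.81 ± 0.92 (SD, n = 8), a log2 difference of -2.57 (SE 0.40, 95% interval -3.40 to -1.73), or 5.93-fold, with an adjusted p of 0.000967. Without OMA1 ASO1 replicate 5 the difference was -2.87.

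Slc7a3 (CAT3), a cationic transporter best known from the brain, was at 8.24, 9.04, 8.15, 9.05 and 7.78 with CTRL ASO, above background on all 5 arrays. It was at 4.86, 3.77, 4.87, 3.77 and 4.93 with OMA1 ASO1 and at 4.10, 4.33 and 4.11 with OMA1 ASO2, below background on all 8. The groups were thus separate, with a gap between 4.93 and 7.78. Against the background of the OMA1 ASO arrays Slc7a3 was at least 5.48-fold lower than with CTRL ASO. The measured means were 8.45 ± 0.57 (SD, n = 5) and 4.34 ± 0.49 (SD, n = 8) (adjusted p = 3.78e-08). Slc7a2 (CAT2), the third cationic transporter, known from liver and from activated macrophages, was at 4.20 to 6.03 with CTRL ASO and 3.85 to 5.30 with OMA1 ASO and above background on no array (adjusted p = 0.814).

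Each ASO was also set against CTRL ASO on its own, to see whether either alone lowered the transporters; both comparisons use the same 5 CTRL ASO arrays and are not independent of each other. With OMA1 ASO1, the 4 genes Slc7a5, Slc7a11, Slc7a1 and Slc7a3 fell and none rose, against 0.721% of all clusters lower and 0.198% higher. With OMA1 ASO2, 4 genes (Slc7a5, Slc7a11, Slc7a1 and Slc7a3) fell and none rose, against 0.576% of all clusters lower and 0.185% higher. Slc7a5 fell by 4.30 on the log2 scale with OMA1 ASO1 (adjusted p = 8.36e-06) and by 4.32 with OMA1 ASO2 (adjusted p = 4.10e-05). Slc7a3 was at least 5.38-fold lower with OMA1 ASO1 (adjusted p = 5.97e-07) and at least 5.65-fold lower with OMA1 ASO2 (adjusted p = 1.39e-06). Slc7a1 fell by 2.33 (adjusted p = 0.00620) and by 2.96 (adjusted p = 0.00352). For Slc7a1 and Slc7a11 these calls rest on few arrays: with OMA1 ASO2 only Slc7a5 and Slc7a3 passed, 2 of 10 genes, without CTRL ASO replicate 1 or 2, without OMA1 ASO2 replicate 2 or 3, with the Y-linked genes as a covariate or with the replicate number as a block. With OMA1 ASO1 the call of Slc7a1 held in only 4 of the 13 fits that left out 1 array (adjusted p at most 0.0253). It was also lost with a trend and robust fitting (adjusted p = 0.0148) and with only the groups compared (adjusted p = 0.0164).

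Slc7a11 was at least 2.22-fold lower with OMA1 ASO1 (adjusted p = 0.00133), where 4 of 5 arrays were below background, and at least 2.42-fold lower with OMA1 ASO2 (adjusted p = 0.00528), where all 3 were. Slc3a2 was the gene of the 5 that passed with neither ASO alone: its difference was -1.44 with OMA1 ASO1 (adjusted p = 0.0402) and -1.92 with OMA1 ASO2 (adjusted p = 0.0178). Without OMA1 ASO1 replicate 5, all 5 genes passed with each ASO, Slc3a2 at an adjusted p of 0.000768 with OMA1 ASO1 and 0.000955 with OMA1 ASO2. By the plain order of the arrays, every OMA1 ASO1 array lay below every CTRL ASO array for Slc7a5, Slc7a11 and Slc7a3, as 2.39% of all clusters did. Every OMA1 ASO2 array did so for these 3 and for Slc3a2 and Slc7a1, as 4.81% of all clusters did with this smaller group, and over both ASOs together the same order held for Slc7a5, Slc7a11 and Slc7a3, as for 1.39% of all clusters. Summed markers of other cells also differed with OMA1 ASO2. The log2 of the summed mural cell markers was 13.46 to 13.86, wholly below the 14.20 to 15.58 of CTRL ASO. That of the macrophage markers was 13.11 to 13.14, wholly above the 11.52 to 12.44 of CTRL ASO. Each sum is weighted to its brightest genes, and the markers went both ways from the CTRL ASO mean to the OMA1 ASO2 mean. Of the mural ones, Acta2 (13.67 to 11.75), Rgs5 and Kcnj8 were lower, but Myh11 (7.30 to 7.59) and Pdgfrb (9.26 to 9.39) higher. Of the macrophage ones, Lyz2 (11.61 to 12.88), Adgre1, C1qa and C1qb were higher, but Mrc1 (9.27 to 8.68) and Csf1r (7.94 to 7.85) lower. The part of these markers in the falls with OMA1 ASO2 was not tested.

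**Figure D2:**
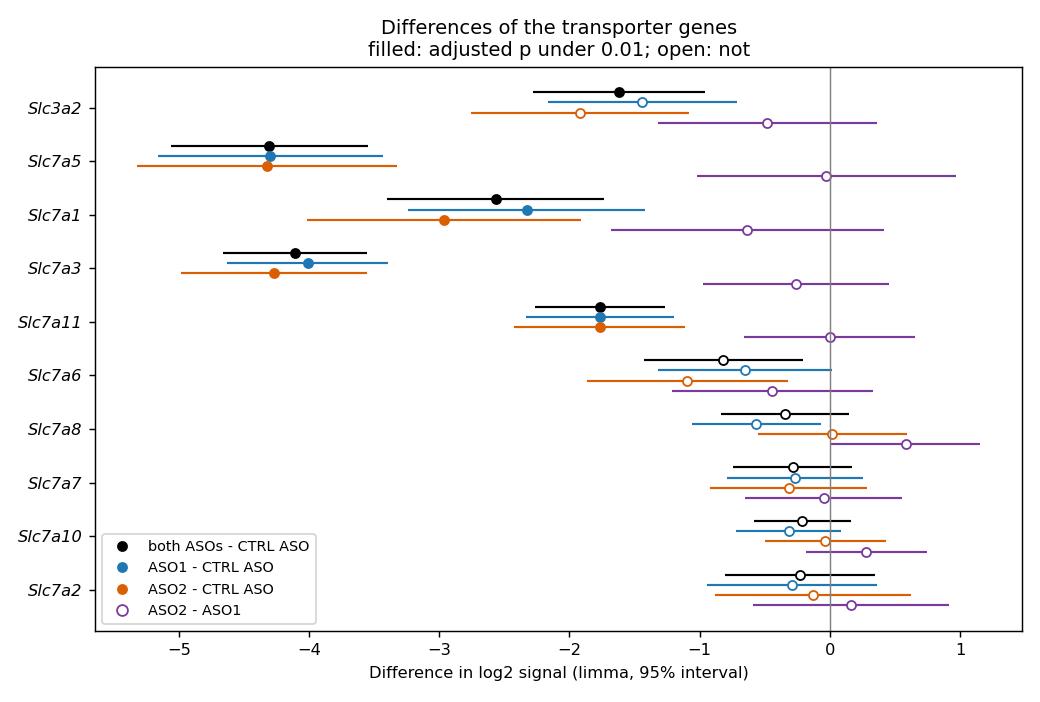
Difference in log2 signal (horizontal axis) of each gene in 4 comparisons, with limma's 95% interval as a line. Filled points passed an adjusted p of 0.01 and open points did not; the intervals of Slc7a5 lie below -3 against CTRL ASO with either ASO, and the 4th comparison, OMA1 ASO2 minus OMA1 ASO1, has no filled point. Points of genes that lie below background, such as Slc7a3 with OMA1 ASO, are fitted values and not measured falls.

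The ASOs were then compared with each other. None of the 10 genes passed the test between them, as 0.104% of all clusters did. The intervals leave room for differences of a doubling or more: OMA1 ASO2 minus OMA1 ASO1 was -0.03 for Slc7a5 (95% interval -1.02 to 0.97), -0.63 for Slc7a1 (-1.68 to 0.41) and -0.48 for Slc3a2 (-1.32 to 0.36). Slc7a11 and Slc7a3 lay below background on 7 and 8 of the 8 OMA1 ASO arrays, so no difference between the ASOs can be read for them.

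The Y-linked genes Uty, Eif2s3y and Kdm5d were above background on CTRL ASO replicates 1 and 4 and on OMA1 ASO1 replicates 2 and 5, and below it on all other arrays, including all of OMA1 ASO2. Within the 9 arrays below background (3 CTRL ASO, 3 OMA1 ASO1 and 3 OMA1 ASO2) the pooled differences were -4.39 for Slc7a5, -2.60 for Slc7a1 and -1.65 for Slc3a2. The adjusted p of Slc7a11 reached 0.01 there and those of the other 4 stayed under it, Slc7a3 at 5.54e-06. Within the 4 arrays above it (2 CTRL ASO and 2 OMA1 ASO1) the differences were -3.77, -2.04 and -1.28 in the same order, with no test. Slc7a5, Slc7a3 and Slc7a11 separated OMA1 ASO from CTRL ASO over all 13 arrays. Their order within either set was thus fixed in advance and adds nothing.

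**Figure D3:**
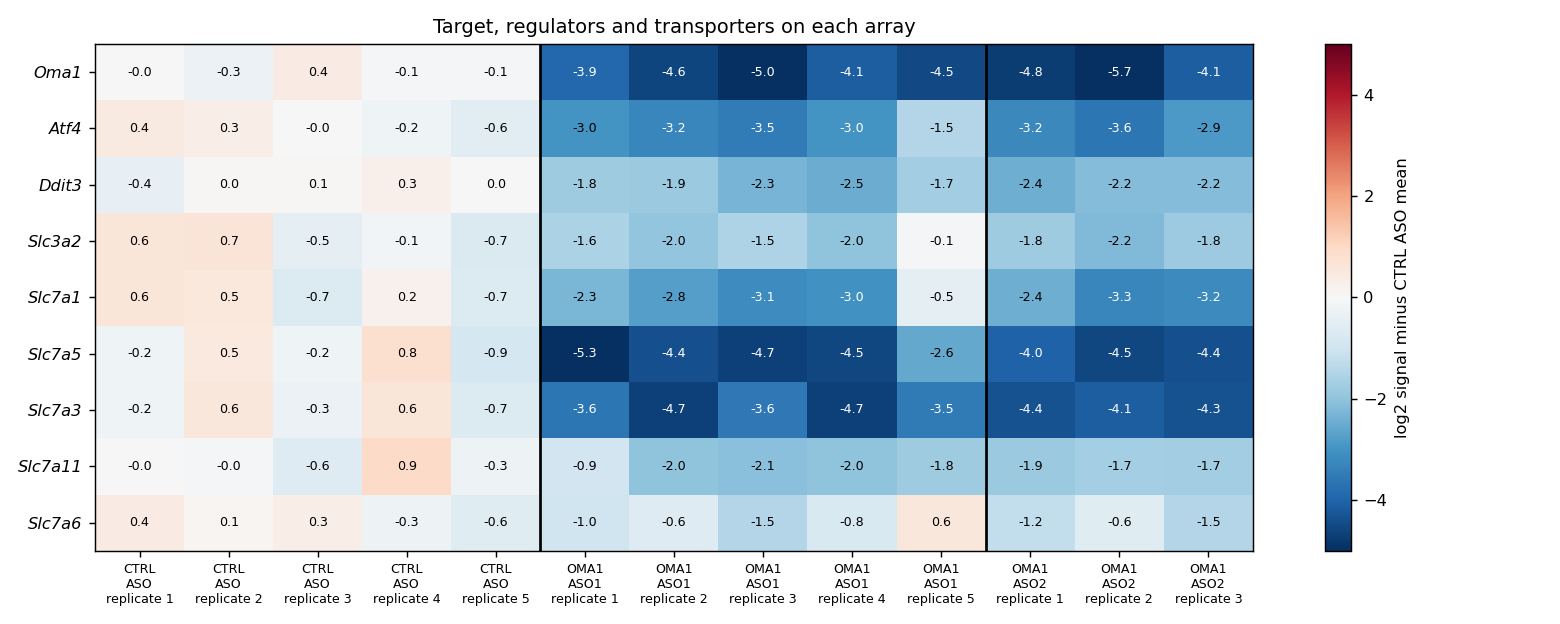
Log2 signal minus the CTRL ASO mean of the gene, written in each cell and shown as colour (blue, lower; the colour scale ends at -5 and 5), for the target Oma1, the regulators Atf4 and Ddit3 and 6 transporter genes (vertical) on the 13 arrays (horizontal; black lines part the ASOs). On OMA1 ASO1 replicate 5, Slc3a2, Slc7a1 and Slc7a6 sit near the CTRL ASO mean while Oma1 is as low as on the other OMA1 ASO arrays.

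Single arrays stood high or low for several of the genes. OMA1 ASO1 replicate 5 was the highest of the 8 OMA1 ASO arrays for Slc3a2, Slc7a5, Slc7a6 and Slc7a1. For Slc7a5 it stood at 8.49 against 5.75 to 7.02 on the other 7, and for Slc7a1 at 9.91 against 7.11 to 8.11. Oma1, at 4.91, was below background on it as on the others. Markers of other cells also differed on this array: the log2 of the summed macrophage markers was 10.60, against 12.32 to 13.14 on the other OMA1 ASO arrays and 11.52 to 12.44 with CTRL ASO, and that of the adipocyte markers was 15.85 against 17.26 to 18.04, carried by Fabp4, since Adipoq, Plin1, Cidec and Retn were above background on no array. Counted gene by gene, 5 of 5 endothelial, 5 of 6 macrophage, 3 of 5 fibroblast, 2 of 7 cardiomyocyte and 1 of 5 mural cell markers lay outside the range of the other 12 arrays. The macrophage and fibroblast ones were lower, and of the endothelial ones 3 were higher and 2 lower. Of examples chosen after their values were seen, the endothelial Cldn5 was at 11.13 against 5.92 to 8.67, the endothelial Kdr at 12.54 against 13.45 to 14.86, and the fibroblast Lum at 10.38 against 12.20 to 14.55. Their part in the transporter levels was not tested.

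Among the CTRL ASO arrays, replicate 5 was the lowest for 4 of the 5 genes that fell. For all 5 of these, the 2 highest CTRL ASO arrays were among replicates 1, 2 and 4. No marker of cardiomyocytes, endothelial cells, fibroblasts, macrophages or mural cells passed the test in any comparison. Summed mural cell markers, at 14.20 to 15.58 with CTRL ASO, were at 14.08 to 14.50 with OMA1 ASO1 and 13.46 to 13.86 with OMA1 ASO2. Fibroblast markers were at 17.76 to 18.85 with CTRL ASO and 18.41 to 18.997 with OMA1 ASO, and endothelial markers at 14.76 to 15.41 and 14.68 to 15.62. The 4 lymphocyte markers measured were above background on no array. The part of cell composition in the falls was not tested.

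Genes around the transporters were described in the same pooled comparison, as counts against the 0.806% of all clusters that were lower. Of 11 regulators of amino acid transporter genes, 5 were lower and none higher (median -1.82, or -1.24 with Trib3 at its bound). The study had named several of them from these same arrays, so their count is not independent evidence. Atf4, the transcription factor of the ISR, was at 13.60 to 14.59 with CTRL ASO and at 10.53 to 12.70 with OMA1 ASO, a fall of 7.95-fold (log2 difference -2.99, adjusted p = 5.44e-06). OMA1 ASO1 replicate 5 gave that 12.70, and the other 7 OMA1 ASO arrays lay at 10.53 to 11.29. Atf5, a relative of Atf4, fell by 3.76 on the log2 scale (adjusted p = 5.90e-07), from 10.86 ± 0.59 (SD, n = 5) to 7.10 ± 0.64 (SD, n = 8). Ddit3 (CHOP) fell by 2.12 (adjusted p = 5.90e-07), and its values of 10.66 to 11.32 and 8.58 to 9.32 varied little within a group, OMA1 ASO1 replicate 5 included. Cebpg, a C/EBP partner of ATF4, fell by 1.88 (adjusted p = 0.000395), and OMA1 ASO1 replicate 5, at 8.48, was the lowest of its arrays. The fifth was Trib3, an inhibitor of ATF4, at least 2.36-fold lower (adjusted p = 0.000499) and below background on all OMA1 ASO arrays. Myc, which can activate Slc7a5, was at 9.88 to 11.37 with CTRL ASO, at 6.28 to 8.07 on 7 OMA1 ASO arrays and at 11.34 on OMA1 ASO1 replicate 5, and missed the threshold (adjusted p = 0.0120); without that array its difference was -3.71 (adjusted p = 1.94e-06). Atf3, of the same list, was at 7.68 to 11.12 with CTRL ASO, at 6.53 to 7.91 on 7 OMA1 ASO arrays and at 12.96 on OMA1 ASO1 replicate 5. Trib3, Myc and Atf3 were picked after their values were seen.

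**Figure D4:**
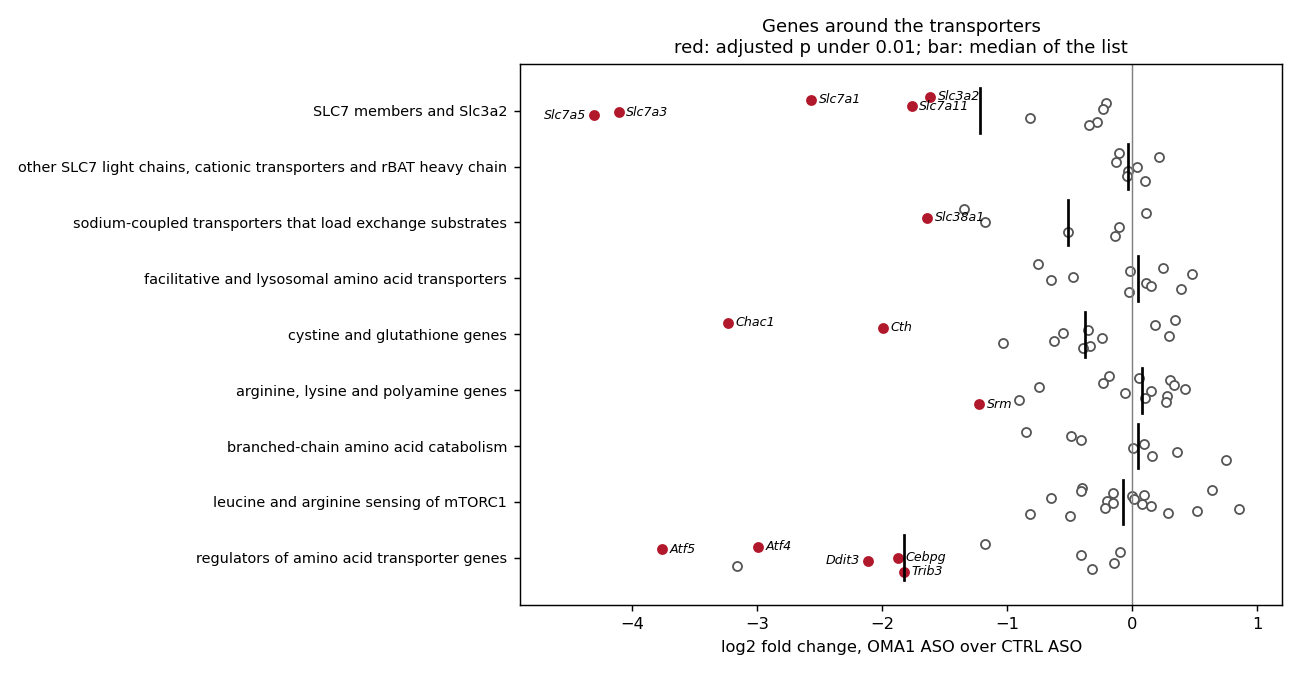
Log2 fold change of OMA1 ASO over CTRL ASO (horizontal axis) for the 10 transporter genes and the genes of 8 lists around them (vertical), 1 point per gene, with the median of each list as a bar. Red points, which are named, passed an adjusted p of 0.01; there are 5 among the transporter genes, 5 among the regulators and at most 2 in any other list.

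The 7 further genes of the family, SLC7 genes outside the set and the second heavy chain Slc3a1, had differences of -0.13 to 0.21 (median -0.04), and none passed the test. None of the 7 was above background on any array, so their differences give no measure of a change. The 4 with the smallest p were Slc7a12, Slc7a13, Slc7a9 and Slc3a1. Of the 7 sodium-coupled transporters, which load the cell with the glutamine and other neutral amino acids that the exchangers trade, 1 fell (median -0.52, or -0.14 with Slc1a4, which allows no fold, at 0). This was Slc38a1 (SNAT1), from 11.83 ± 0.63 (SD, n = 5) to 10.19 ± 0.61 (SD, n = 8), 3.12-fold lower (adjusted p = 0.00516), a call lost, at an adjusted p of at most 0.0257, without CTRL ASO replicate 2, 4 or 5, OMA1 ASO1 replicate 2 or 3, or OMA1 ASO2 replicate 3. Slc38a2 (SNAT2), an amino acid starvation gene, had a difference of -1.18 (adjusted p = 0.0501), which without OMA1 ASO1 replicate 5 was -1.35 (adjusted p = 0.00473), and Slc1a4, a carrier of serine and alanine, was above background on 1 of 13 arrays. None of the 10 facilitative and lysosomal carriers passed (median 0.05), among them the lysosomal cystine exporter Ctns at -0.75 (adjusted p = 0.122).

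Of 12 genes of cystine and glutathione metabolism, on the path that Slc7a11 feeds, 2 fell (median -0.38). Cth, which makes cysteine from cystathionine, had measured means of 7.86 ± 0.66 (SD, n = 5) and 5.87 ± 0.35 (SD, n = 8) and was above background on 3 of the 8 OMA1 ASO arrays, so that it was at least 3.43-fold lower (adjusted p = 0.000114). Chac1, which breaks glutathione down, was at least 3.90-fold lower (adjusted p = 0.000491). Gss, glutathione synthetase, had a difference of -1.04 (adjusted p = 0.0155), and passed without OMA1 ASO1 replicate 1 (adjusted p = 0.00694).

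Of 14 measured genes that use arginine and lysine, the cargo of Slc7a1 and Slc7a3, only the spermidine synthase Srm fell (log2 difference -1.23, adjusted p = 0.00640; median of the list 0.08), and its call was lost, at an adjusted p of at most 0.0279, without CTRL ASO replicate 1, 2, 3 or 4, OMA1 ASO1 replicate 1 or 3, or OMA1 ASO2 replicate 2 or 3. Arg1, Arg2, Nos1, Nos2, Nos3, Asl, Gatm and Aass of this list were above background on no array, so no fall could be read for them. Odc1, which makes putrescine from ornithine, differed by -0.91 (adjusted p = 0.123), and by -1.09 without OMA1 ASO1 replicate 5 (adjusted p = 0.00581). None of 8 genes of branched-chain amino acid catabolism, which uses the leucine that Slc7a5 imports, passed (median 0.05), with Ppm1k at 0.75. Bcat1 was above background on 3 of the 5 CTRL ASO arrays and on no OMA1 ASO array. Its -0.85 is a fitted value, and against background its CTRL ASO mean was only 1.185-fold higher. None of 18 genes through which mTORC1 senses leucine and arginine passed either (median -0.08), and the one with the smallest p was Rragd, a GTPase of that pathway, at 0.85 (adjusted p = 0.0270), which passed at 0.93 without OMA1 ASO1 replicate 5 (adjusted p = 0.00772).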

How the data were processed

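RNA of 13 mouse hearts was read on Clariom S Mouse arrays. The authors deposited log2 signals per probe set, made with Transcriptome Analysis Console under its default settings, per the labels and the study's methods. The build of the array's annotation was not given in the sources used here. Of 28846 probe sets, 6640 control sets were left out and 22206 transcript clusters were tested without a filter on low signals. A gene was taken by its brightest cluster, and gene names (19572 clusters with 1 symbol, 2634 with none) were checked against RefSeq by Entrez ID.

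The tests were run in R 4.3.3 with limma 3.58.1 (lmFit, then eBayes without trend or robust fitting). P-values were adjusted over all clusters by Benjamini-Hochberg, and an adjusted p under 0.01 was the threshold. The pooled comparison used both OMA1 ASOs as 1 group, as the study did, and the others a model of 3 group means with a shared spread. The fit was tested on simulated data. Where all arrays of a group lay below background, the fold is a bound against the mean background of that group, and where only some did, each such array was set to its own background. An adjusted p printed beside a bound comes from the fit to the measured values and does not test the bound. The sample titles do not say whether the replicate numbers pair the mice, and the main fits did not use them. Of 11 same-numbered pairs, 3 had a correlation of deviations over 0.1 (range -0.11 to 0.18). Differently numbered pairs were not compared, so these values do not decide whether the mice are paired. Precision is limited by how few arrays there are.

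The genes and lists were chosen with earlier results of these data known. By rule, the transporter genes and Oma1 are named, with the 4 genes of smallest p in a list at most, and marker lists are given as counts and ranges. Chchd10 and Atf3 were named outside this rule and were not computed again under other settings. Oaz1 and Ass1 of the arginine list are not in the annotation. The counts of calls, the transporter genes and, in the pooled comparison, the list genes given with values (not markers or Atf3) were computed again with a mean-variance trend and robust fitting, normalization by quantiles again or by medians, a filter on low signals, array weights, the 3 Y-linked genes as a covariate, the replicate number as a block, no moderation of the spread, equal weights of both ASOs, only the groups compared, a threshold of 0.05 and leaving out each array. The fit within arrays whose Y-linked genes are below background was added after seeing the data.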

Additional observations from a re-analysis of the deposited data

Results flagged for a closer look

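In 2 of 46 groups of 5 arrays, looked at over 23 genes, 1 array stood far from the other 4, and both were OMA1 ASO1 replicate 5. Slc3a2 was at 14.92 there, against 12.98 to 13.48 on the other OMA1 ASO1 arrays. Atf4 was at 12.70, against 10.64 to 11.17. By chance alone about 1 group in 20 would stand out in this way. The cause was not tested.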

How the results depend on the processing

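The falls of Slc7a5 and Slc7a3 kept their direction and stayed under an adjusted p of 0.01 in the pooled comparison and with each ASO under every alternative run and with any 1 array left out. Over these, the pooled adjusted p was 1.10e-08 to 0.000412 for Slc7a5, 4.20e-09 to 4.10e-05 for Slc7a3, 6.55e-05 to 0.01 for Slc7a11, 2.07e-06 to 0.0239 for Slc7a1 and 8.71e-05 to 0.0616 for Slc3a2. The pooled differences of the 5 genes stayed below 0 throughout. The call of Slc3a2 was lost with a trend and robust fitting (adjusted p = 0.0136), the Y-linked covariate (0.0103), the replicate block (0.0259) and each cluster on its own spread (0.0616). Each transporter gene has 1 cluster, so using all clusters gives no other value, and the filter on low signals removes Slc7a2, Slc7a7, Slc7a10 and Slc1a4. Of the other genes named, Oma1, Atf4, Atf5, Ddit3 and Cth stayed under 0.01 throughout. With each cluster on its own spread Cebpg (0.0101), Trib3 (0.0119), Chac1 (0.0176), Slc38a1 (0.0463) and Srm (0.0395) did not pass. Within the arrays whose Y-linked genes are below background Trib3 (0.0159), Slc38a1 (0.0494) and Srm (0.0386) did not, and with the replicate block Slc38a1 (0.0178) and Srm (0.0265) did not. Myc passed with array weights, with equal weights of both ASOs and within those Y-linked arrays, Gss with equal weights, and Slc38a2 and Slc1a4 with array weights. No sign turned among these genes.

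With each cluster on its own spread, the number of transporter genes called was 3 in the pooled comparison, 2 with OMA1 ASO1 and 2 with OMA1 ASO2, and that of clusters was 129, 99 and 80, against 230, 204 and 169, and 5 against 23 between the ASOs. At a threshold of 0.05 the clusters numbered 506, 412, 355 and 51. Within the arrays whose Y-linked genes are below background they numbered 128 in the pooled comparison and 108 with OMA1 ASO1. For OMA1 ASO2, the Y-linked covariate left 107 clusters and 2 transporter genes, and the replicate block left 2 transporter genes. Between the ASOs, clusters numbered 39 with a trend and robust fitting, 14 with the replicate block and 9 with only the groups compared.

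With 1 array left out, clusters ranged from 142 (CTRL ASO replicate 2) to 317 in the pooled comparison, with 149 when CTRL ASO replicate 4 was omitted. They ranged from 96 to 269 for OMA1 ASO2, the low values coming from omitting CTRL ASO replicate 2 or any array of OMA1 ASO2 and the high one from omitting OMA1 ASO1 replicate 5, and from 8 to 38 between the ASOs. The transporter genes called for OMA1 ASO2 ranged from 2 to 5. Causes of these shifts were not tested.

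Signs turned only among differences near 0 that had not passed the test. For OMA1 ASO2 against CTRL ASO, Slc7a8 was -0.0666 with array weights and -0.028 within the arrays below background for Y-linked genes, and Slc7a2 was 0.0105 with the Y-linked covariate and 0.13 within those arrays, where its pooled value was 0.0595. Between the ASOs, Slc7a5 was 0.25 with array weights, 0.36 with the covariate, 0.21 with the replicate block and 0.52 within those arrays, Slc7a7 was 0.031 with the covariate, and Slc7a11, mostly below background there, was 0.0059 with array weights, 0.13 with the covariate and 0.0697 with the block. Leaving out 1 array gave ranges of -0.41 to 0.0499 for pooled Slc7a2. For OMA1 ASO2 they were -0.20 to 0.37 for Slc7a8, -0.17 to 0.17 for Slc7a10 and -0.31 to 0.15 for Slc7a2. Between the ASOs they were -0.28 to 0.41 for Slc7a5, -0.19 to 0.15 for Slc7a7, -0.0879 to 0.20 for Slc7a11 and -0.0272 to 0.34 for Slc7a2.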
